A study of Mus musculus with 24 samples.

Results

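The genes described here encode the subunits and assembly factors of the proteasome, measured in mouse embryonic stem cells that lack or carry altered forms of the Huntington's disease gene Hdh (now Htt). They were chosen by name: every gene whose symbol begins with Psma, Psmb, Psmc, Psmd, Psme or Psmg and which had a probe set of its own, without 1 inducible core subunit that is not analysed here. A probe set is a group of short array probes that together measure 1 transcript. Of 47 such genes, 45 reached a log2 level of 5 on at least 3 of the 24 arrays, out of 9511 genes measured. The genes that did not were Psmb11, the thymus-specific core subunit, whose highest array was at 3.02, and Psmb9, an interferon-inducible core subunit, whose highest array was at 3.73. Psme2, the partner subunit of Psme1, shares its probe set with a near-identical copy and was given no value.

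The proteasome degrades proteins that carry a ubiquitin tag. Its 20S core is a barrel of alpha rings, which gate the entrance, around beta rings, which hold the cutting sites. The 19S cap binds the tag, and its base of ATPases unfolds the protein and feeds it into the core, while other activators can replace the cap. Dedicated chaperones assemble the rings and leave once the particle is complete. Embryonic stem cells are known for high proteasome activity, and clearance of the expanded glutamine stretch of mutant huntingtin by the proteasome has long been studied in Huntington's disease.

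All samples were undifferentiated 129/Sv embryonic stem cells, and the total RNA of each was measured on its own Affymetrix mouse expression array. The groups were 6 arrays of Hdh knock-out cells with a null genotype, 3 arrays of each of 4 knock-in lines, and 6 arrays of control cells with alleles of 7 and 7 CAG repeats. The knock-in lines each kept an allele of 7 repeats beside a longer one, of 16 repeats in Q20, 45 in Q50 (43 on replicate 3), 85 in Q91 and 111 in Q111. The labels call the replicates biological but do not say whether they were separate clones or parallel cultures, so a p-value reflects the variation between arrays, which may be technical. A free-text field of the labels swaps the control and knock-out descriptions, and the groups follow the titles and genotypes. Htt ranged from 6.67 to 7.39 on the knock-out arrays and from 7.45 to 8.25 on the control arrays (log2 change -0.80), and it was also lower in Q91 (-1.05) and Q111 (-0.79).

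Values are deposited log2 levels, a change is the difference of group means on that scale, and a gene was called changed at a limma adjusted p under 0.05 over all 17980 probe sets tested. The arrays limit the precision. All 10 embryonic stem cell markers were measured on every array, with a mean level between 13.5 and 13.7 in the knock-out, between 12.8 and 13.3 in Q20, between 13.2 and 13.5 in Q50, between 12.7 and 13.1 in Q91, between 12.9 and 13.4 in Q111 and between 13.5 and 13.6 in control cells. Of these 10, 5 were called lower in Q20, 1 in Q50, 6 in Q91 and 5 in Q111, and none higher in a line. In the knock-out 2 were called higher and none lower. Klf4 stood at -1.23 in Q20, -1.09 in Q50, -1.38 in Q91 and -1.25 in Q111, all called lower. In the knock-out Klf4 was called higher (0.58). Esrrb was called lower in Q20 (-1.37), Q91 (-1.40) and Q111 (-1.24). Of 8 fibroblast markers, which a feeder layer would contribute, Dcn, Lum, Postn, Pdgfra and Col3a1 stayed below the filter. Their mean over the 8 lay between 2.90 and 3.16 in the knock-out, between 3.66 and 4.02 in Q20, between 3.13 and 3.21 in Q50, between 3.48 and 4.44 in Q91, between 3.92 and 4.25 in Q111 and between 3.28 and 3.47 in control cells. The 3 above it differed between groups. Col1a1 had a mean of 7.98 in Q20, 7.48 in Q91 and 8.40 in Q111 against 3.73 in control cells. Col1a2 was called higher in Q91 (1.33) and Q111 (2.40). Thy1 went the other way, at 3.3 in the knock-out against 5.97 in control cells (-2.66, adjusted p = 0.0015), and stood at -1.31 in Q20, -1.67 in Q50, -0.87 in Q91 and -0.63 in Q111, none called. The part of the stem cell and fibroblast markers in the results was not tested. In bulk RNA, a change in the share of a cell type and a change in RNA per cell cannot be told apart.

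Most proteasome genes were high and varied little within groups. Their mean levels over all arrays ran from 7.76 for Psmg4 to 14.22 for Psmb4, and their median standard deviation within groups was 0.149 against 0.248 over all probe sets, not matched for level. Their median absolute change in the knock-out was 0.197 against 0.176 over all probe sets. In the lines it was 0.154 against 0.255 in Q20, 0.080 against 0.202 in Q50, 0.083 against 0.238 in Q91 and 0.185 against 0.260 in Q111. In the knock-out 13 of 45 were called, 4 higher and 9 lower, where 14.6% of all probe sets were called (7.42% higher and 7.17% lower). In Q20 10 were called, 8 higher and 2 lower, against a background of 25.2% (16.2% higher and 9.0% lower). In Q50 only Psmd3 was called, lower, against 8.0% (5.70% higher and 2.30% lower). In Q91 6 were called, 1 higher and 5 lower, against 22.2% (12.7% higher and 9.49% lower). In Q111 13 were called, 8 higher and 5 lower, against 25.7% (16.2% higher and 9.49% lower). The share of members called was thus 28.9% in the knock-out and in Q111, 22.2% in Q20, 13.3% in Q91 and 2.22% in Q50, above the background in the knock-out and close to it or below it in the lines. Without knock-out replicate 6 the knock-out had 7 called (15.6%, against 11.4% of all probe sets), without Q91 replicate 2 Q91 had 3 (6.67% against 12.3%), and without Q111 replicate 1 or 2 Q111 had 5 (11.1% against 16.6% and 18.1%). Without control replicate 3 Q111 had 8 (17.8% against 22.3%), and without Q20 replicate 1 or 2 Q20 had 6 (13.3% against 14.7% and 17.0%). The median change of the 45 was -0.13 in the knock-out, -0.01 in Q20, -0.03 in Q50, -0.06 in Q91 and -0.08 in Q111, beside medians between -0.004 and 0.04 over all probe sets. All 5 comparisons use the same 6 control arrays. When each array was centred on its median probe set, every change moved by -0.02 in the knock-out, -0.11 in Q20, -0.08 in Q50, -0.07 in Q91 and -0.12 in Q111, and the split of calls became 2 higher and 9 lower, 4 and 9, 0 and 1, 0 and 9, and 4 and 13 in that order. With quantile normalization the Q20 split was 8 and 5.

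**Figure D1:**
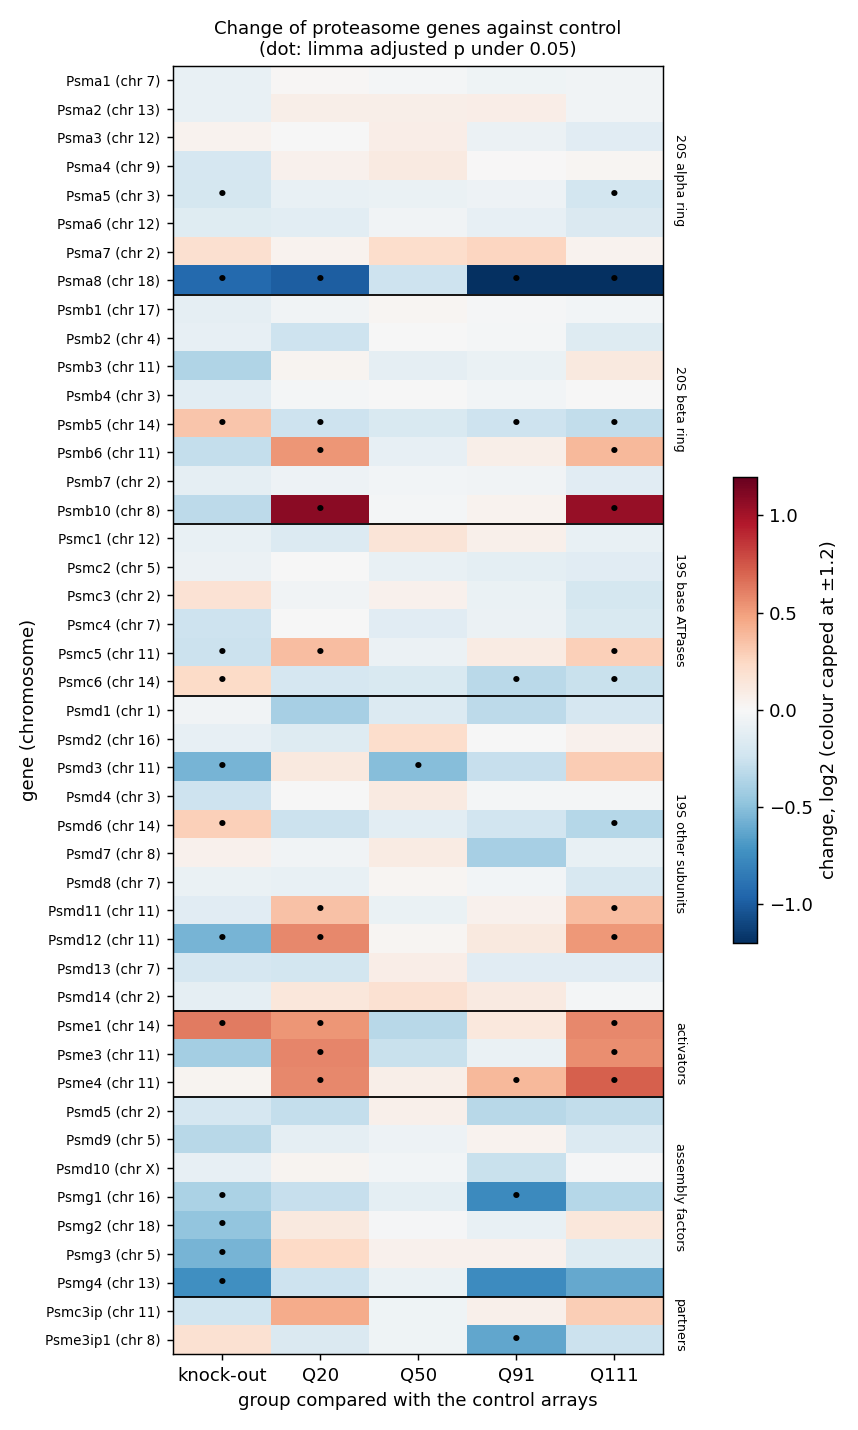
Change of each proteasome gene (rows, by class, with its chromosome) in the knock-out and the 4 knock-in lines against the 6 control arrays, in log2 units; blue is lower, red is higher, and a dot marks a limma adjusted p under 0.05. Psma8 is below 0 in every column, the assembly chaperones are lower in the knock-out, and 6 of the 9 chromosome 11 genes are called higher in Q20 and Q111. Of all measured genes of chromosome 11, 50.3% are called higher in Q20 and 48.6% in Q111.

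The members called higher in any group against control lie on chromosomes 8, 11 and 14, while 6 of the 9 called lower in the knock-out lie on others. All 4 genes called higher in the knock-out, Psmb5, Psmc6, Psmd6 and Psme1, lie on chromosome 14 and are the only members there. Over the 335 measured genes of chromosome 14 the median change in the knock-out was 0.43, the highest of 20 chromosomes, and 182 were called higher. The array medians of chromosome 14, as differences from the control mean, were 0.32 to 0.54 on the 6 knock-out arrays and -0.24 to 0.13 on the control arrays. The knock-out arrays thus lay above all control arrays in this median, though not for every gene.

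Chromosome 11 carries 9 members, and 6 of them were called higher in both Q20 and Q111: Psmb6, Psmc5, Psmd11, Psmd12, Psme3 and Psme4. Of all measured genes there, 403 (50.3%) were called higher in Q20 and 389 (48.6%) in Q111. The median change of the 801 measured genes of chromosome 11 was 0.46 in Q20 and 0.43 in Q111, in each the highest of 20 chromosomes, and -0.22 in the knock-out, the lowest. Its array medians were 0.39 to 0.49 in Q20, 0.42 to 0.48 in Q111 and -0.10 to 0.16 in control cells. In Q91 the chromosome 11 medians were 0.47, -0.08 and -0.08 on replicates 1, 2 and 3, so replicate 1 stood apart from its own group. Of the 9 members there, 8 were also highest on replicate 1 of Q91: Psmb6, for example, was at 13.91, 13.17 and 13.29 on these Q91 arrays, and Psmd12 at 13.77, 13.11 and 13.13. Psme4 differed little between replicates 1 and 2 (0.51 and 0.44 above the control mean), and Psme3 was highest on replicate 2, at differences of -0.015, 0.11 and -0.34. On chromosome 8, which carries Psmb10, Psmd7 and Psme3ip1, the medians were -0.45 to -0.42 on the Q91 arrays, -0.40 on replicate 3 of Q20, -0.32 on replicate 3 of Q50, -0.41 on replicate 3 of Q111 and -0.30 on control replicate 4.

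**Figure D2:**
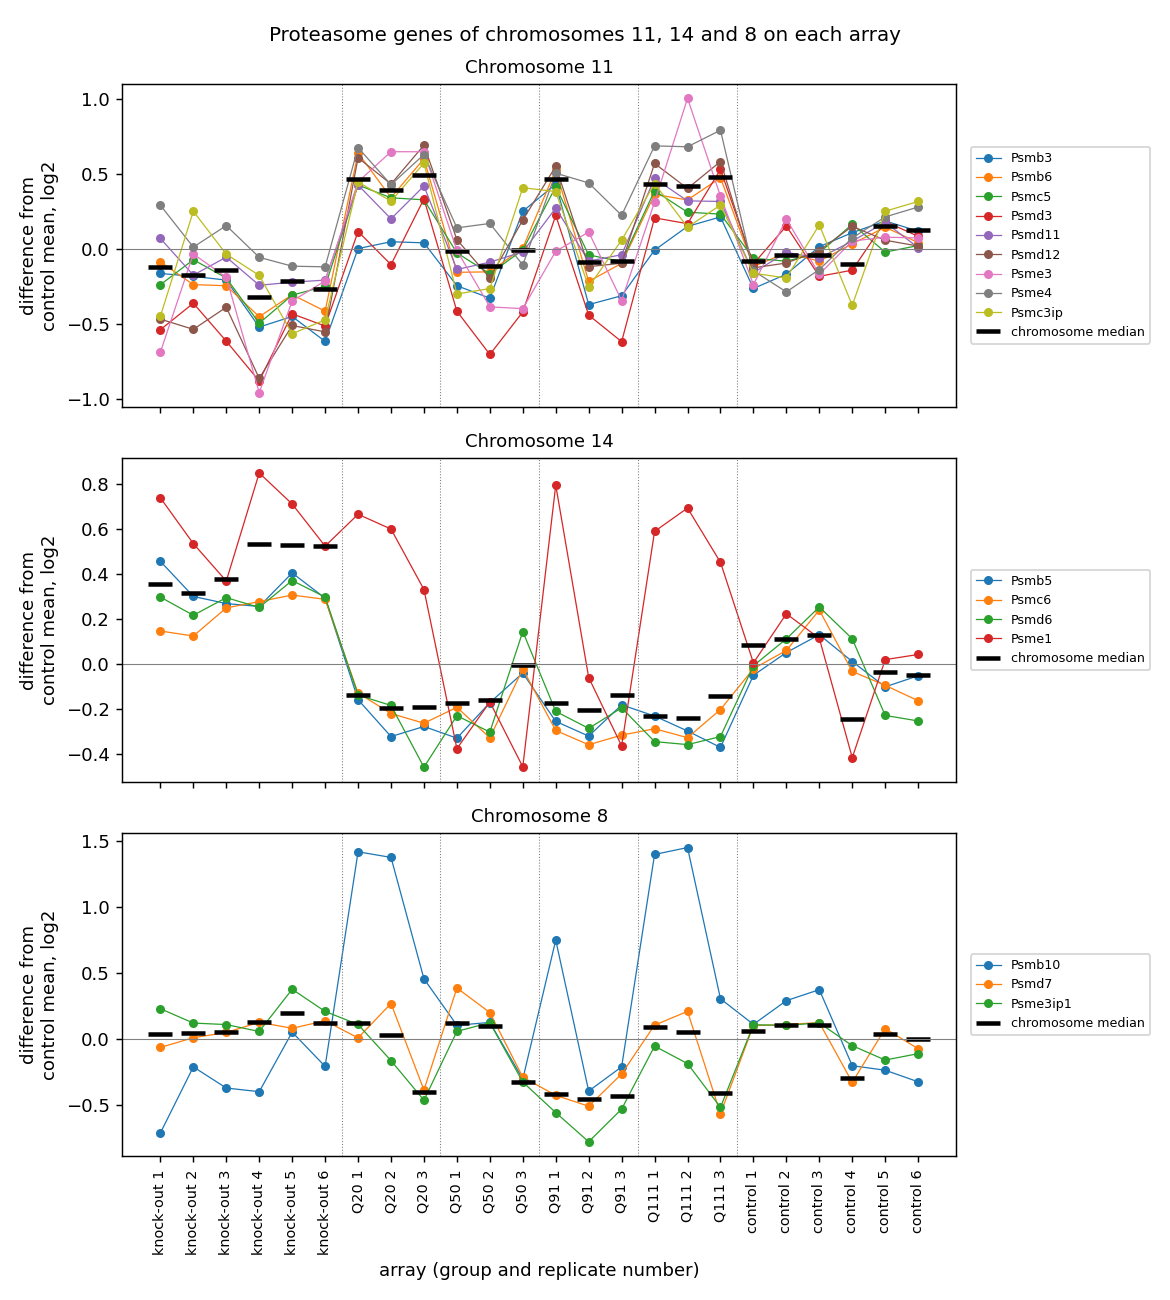
Difference of each member from its control mean (log2) on each of the 24 arrays, for chromosomes 11, 14 and 8; coloured points joined by lines are genes and black bars are the median of all measured genes of the chromosome. The chromosome 11 bar is high on the Q20 and Q111 arrays and on replicate 1 of Q91, where 8 of the 9 members are highest of the Q91 arrays, and the chromosome 14 bar is high on the knock-out arrays.

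Each gene was therefore also expressed relative to the median of its chromosome on the same array, an alternative added after the pattern was seen. The knock-out then had 10 members called, 0 higher and 10 lower (22.2% of members, against 13.1% of all probe sets in this setting). By name 9 of these were among the 13 above, but Psmc6 had been called higher there and was now lower. Q20 had 5 calls (2 higher and 3 lower, 11.1% against 22.8%) and Q111 5 (2 higher and 3 lower, 11.1% against 24%). Q50 again had Psmd3 alone (2.22% against 8.64%), and Q91 had 5, all lower (11.1% against 22.2%). Of the 29 members outside chromosomes 8, 11 and 14 0 were higher and 6 lower in the knock-out, 0 and 1 in Q20, 0 and 0 in Q50, 0 and 2 in Q91, and 0 and 2 in Q111. These are 20.7%, 3.45%, 0%, 6.90% and 6.90% of the 29, beside 14.6%, 24.7%, 8.04%, 23.8% and 25.2% of the 7820 genes measured outside these chromosomes, in the same order.

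Promoters of 5 of these genes are shown because they place genes of both chromosomes beside the response elements that proteasome genes are known for. In mammalian cells Nfe2l1 raises proteasome genes when activity falls, through antioxidant response elements, and interferon gamma raises the inducible subunits. Sequences are from RefSeq, assembly GRCm38.p6, 250 bases before to 50 after the start, with the match in capitals. It is the core TGACNNNGC, on either strand, for Psme4 (chr11:30771525-30771824, plus strand), Psmd12 (chr11:107479278-107479577, plus strand), Psmc6 (chr14:45329574-45329873, plus strand) and Psmb5 (chr14:54617946-54618245, minus strand), and the interferon-stimulated response element core, GAAA followed after 2 bases by another GAAA, for Psme1 (chr14:55578244-55578543, plus strand).
Psme4 promoter: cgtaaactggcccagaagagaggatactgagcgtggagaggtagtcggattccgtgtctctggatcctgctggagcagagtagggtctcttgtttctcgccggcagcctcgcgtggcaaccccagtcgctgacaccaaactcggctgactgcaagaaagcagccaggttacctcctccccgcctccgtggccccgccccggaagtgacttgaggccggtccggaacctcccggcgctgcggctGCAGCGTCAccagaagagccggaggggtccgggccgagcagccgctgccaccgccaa
Psmd12 promoter: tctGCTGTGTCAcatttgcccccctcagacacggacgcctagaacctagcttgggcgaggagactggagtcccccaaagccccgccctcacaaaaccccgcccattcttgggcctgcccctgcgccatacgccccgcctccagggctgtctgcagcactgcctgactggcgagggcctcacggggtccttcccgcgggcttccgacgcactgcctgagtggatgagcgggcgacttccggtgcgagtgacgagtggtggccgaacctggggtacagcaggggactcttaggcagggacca
Psmc6 promoter: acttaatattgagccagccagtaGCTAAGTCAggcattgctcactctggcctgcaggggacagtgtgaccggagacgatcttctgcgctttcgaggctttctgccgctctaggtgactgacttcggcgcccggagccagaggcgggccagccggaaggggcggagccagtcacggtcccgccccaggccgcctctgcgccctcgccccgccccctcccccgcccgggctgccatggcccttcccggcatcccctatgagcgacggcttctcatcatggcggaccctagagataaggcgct
Psmb5 promoter: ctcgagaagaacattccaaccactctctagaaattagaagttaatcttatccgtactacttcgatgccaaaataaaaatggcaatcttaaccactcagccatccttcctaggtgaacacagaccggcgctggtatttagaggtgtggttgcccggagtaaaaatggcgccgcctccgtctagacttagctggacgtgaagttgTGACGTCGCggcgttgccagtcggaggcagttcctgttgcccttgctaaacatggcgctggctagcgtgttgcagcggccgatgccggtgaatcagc
Psme1 promoter: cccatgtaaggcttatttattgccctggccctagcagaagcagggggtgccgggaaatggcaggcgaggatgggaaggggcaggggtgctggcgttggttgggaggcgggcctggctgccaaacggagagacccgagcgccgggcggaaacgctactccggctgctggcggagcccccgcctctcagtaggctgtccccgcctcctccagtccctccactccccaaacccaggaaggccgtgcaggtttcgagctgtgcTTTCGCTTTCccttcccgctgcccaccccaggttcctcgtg
The antioxidant element core was found in 6 of 40 promoters of the 37 members that matched the table (15%), those of Psmb5, Psmb6, Psmc6, Psmd9, Psmd12 and Psme4, against 12.4% of all 32851 promoters. The match begins 7 bases before the start in Psme4, 47 in Psmb5, 227 in Psmc6 and 247 in Psmd12. The interferon element core was found in 5 of 40 (12.5%), against 3.44% of all promoters, in Psmb3, Psmd4, Psmd9, Psme1 and Psmg4. The CCAAT box was found in 35% against 37.4%, and the interferon gamma site core TTCNNNGAA in 5% against 8.3%. Both strands were searched for every motif, and a match is a description of letters, not of binding.

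The assembly chaperones fell together in the knock-out: 4 of the 7 assembly factors were called, all lower, and these are the 4 Psmg genes. Of all probe sets, 7.17% were called lower in the knock-out. Psmg1 and Psmg2 form a pair, and Psmg3 and Psmg4 another, that build the alpha ring of the core. Psmg2 ranged from 11.31 to 11.59 with a median of 11.45 on the knock-out arrays, and from 11.85 to 12.02 with a median of 11.91 on the control arrays. The groups did not overlap, and the change was -0.47 (SE 0.08, adjusted p = 0.00054). Psmg3 ranged from 7.69 to 8.18 with a median of 8.12 on the knock-out arrays, and from 8.43 to 8.72 with a median of 8.57 on the control arrays. Again no knock-out array reached a control array (-0.56, SE 0.12, adjusted p = 0.0050). Psmg1 was at 11.76 to 12.01 with a median of 11.89 in the knock-out and at 12.15 to 12.41 with a median of 12.22 in control cells (-0.38, SE 0.12, adjusted p = 0.030). Its groups were also apart. Psmg4 was at 7.07 to 7.83 with a median of 7.33 in the knock-out and at 7.82 to 8.88 with a median of 8.05 in control cells, and these ranges met (-0.73, SE 0.22, adjusted p = 0.032).

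The 4 Psmg genes lie on chromosomes 16, 18, 5 and 13, where the median change of all measured genes in the knock-out was -0.05, -0.04, -0.07 and -0.02. Relative to their chromosome all 4 were still called lower, at -0.34, -0.43, -0.50 and -0.71 for Psmg1 to Psmg4. Pomp, the chaperone that matures the beta rings, has another naming prefix and was also lower, at 12.06 to 12.39 in the knock-out and 12.55 to 13.11 in control cells (-0.59, called). The other 3 assembly factors act on the cap, and none was called: Psmd9 was at -0.34, Psmd5 at -0.20 and Psmd10 at -0.09. Psmg2 and Psmg3 were called lower in the knock-out under all alternatives run, while Psmg1 and Psmg4 were not called when no filter was used (adjusted p = 0.056 and 0.077) or on replicates 4 to 6 alone (0.057 and 0.37). Psmg1 was not called on replicates 1 to 3 alone (0.071), nor Psmg4 with the replicate block (0.057). Psmg1 was also not called without control replicate 3 or 4 or knock-out replicate 4 or 6 (-0.36 to -0.35), nor Psmg4 without control replicate 2 or 3 or knock-out replicate 2, 3 or 6 (-0.73 to -0.59).

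In the lines the chaperones split. Psmg1 was called lower in Q91, at 12.05, 11.18 and 11.26 on its 3 arrays (-0.76, SE 0.14, adjusted p = 0.00062). Replicates 2 and 3 of Q91 lay far below replicate 1, which was itself just below the control range. Psmg1 ran at -0.27 in Q20, -0.12 in Q50 and -0.34 in Q111, none called. Psmg4 was at -0.75 in Q91 and -0.62 in Q111 without passing, and Pomp was called lower in Q111 (-0.43). Tested directly against the mean of the 4 lines, the knock-out was lower for Psmg2 (-0.51, adjusted p = 4.5e-06) and Psmg3 (-0.60, adjusted p = 0.00012), and no such difference was called for Psmg1 or Psmg4.

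**Figure D3:**
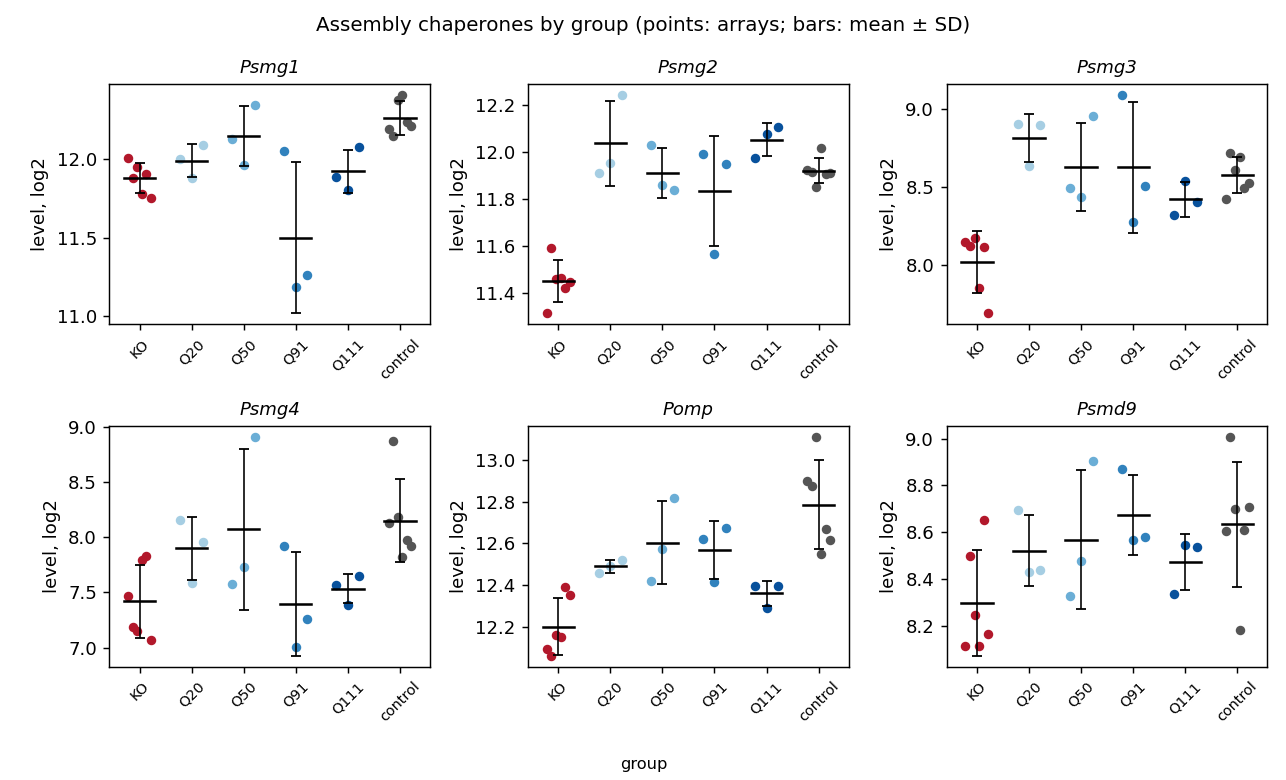
Log2 level of the core chaperones Psmg1 to Psmg4 and Pomp and of the cap chaperone Psmd9 in the knock-out (KO), the 4 knock-in lines and control cells; points are arrays, horizontal bars the mean and error bars the standard deviation (n = 6, 3, 3, 3, 3 and 6). The knock-out arrays of Psmg1, Psmg2, Psmg3 and Pomp lie below all control arrays.

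Of the 8 alpha ring genes, Psma8 changed most of all members. Psma8 encodes a form of the alpha ring subunit Psma7 that is best known from male germ cells. It was at 7.54 to 8.38 with a median of 7.85 on the knock-out arrays, and at 8.27 to 9.07 with a median of 8.84 on the control arrays (-0.93, SE 0.18, adjusted p = 0.0019). Only the lowest control array came within the knock-out range. In the lines its arrays were at 7.73, 7.69 and 7.97 in Q20 (-0.99, adjusted p = 0.0030), 8.83, 8.66 and 8.10 in Q50 (-0.25, not called), 7.09, 6.75 and 7.61 in Q91 (-1.63, adjusted p = 3.2e-05), and 6.85, 6.70 and 7.48 in Q111 (-1.77, adjusted p = 1.5e-05). The Q20, Q91 and Q111 arrays all lay below the control arrays, and Q111 stood at 0.293 of the control level. These calls also held relative to the chromosome. The call was lost for the knock-out on replicates 4 to 6 alone (-0.56, adjusted p = 0.16) and for Q20 against control replicates 4 to 6 (-0.80, adjusted p = 0.052).

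Among the 4 lines Psma8 differed (F-test, adjusted p = 0.0022), but its means were not in the order of the repeats, at 7.79 in Q20, 8.53 in Q50, 7.15 in Q91 and 7.01 in Q111. Its slope on the repeat number over the 12 knock-in arrays was -1.21 per 100 repeats with an unadjusted p of 0.011 and an adjusted p of 0.88. It was the only member with an unadjusted slope p under 0.05, limma called 0 of the 45, and 0.0445% of all probe sets were called (0.0111% higher and 0.0334% lower, and 4.58% at an unadjusted p under 0.05). Beside Psma8, Psma5 was called lower in the knock-out (-0.21, adjusted p = 0.029) and in Q111 (-0.22, adjusted p = 0.044); these calls held in 5 of 12 and 3 of 9 fits that left out 1 array. The other 6 alpha genes, Psma1, Psma2, Psma3, Psma4, Psma6 and Psma7, were called in no comparison with control, with changes of at most 0.26 in size and 95% intervals within -0.41 to 0.52.

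Of the 8 beta ring genes, Psmb5, Psmb6 and Psmb10 were called against control. Psmb5 carries the chymotrypsin-like site. It was at 13.61 to 13.81 with a median of 13.65 on the knock-out arrays and at 13.26 to 13.49 with a median of 13.34 on the control arrays, with no overlap (0.33, adjusted p = 0.0020). In the lines it stood at -0.25 in Q20, -0.25 in Q91 and -0.30 in Q111, all called lower, and at -0.18 in Q50, not called. The Q20 call was lost without control replicate 3 or Q20 replicate 2 or 3 (adjusted p = 0.057 to 0.12), and the Q91 call without control replicate 2 or 3 or Q91 replicate 1 or 2 (0.054 to 0.14). Relative to chromosome 14 the knock-out change turned to -0.11 (adjusted p = 0.37). Psmb6, with the caspase-like site, was at 14.02, 13.73 and 13.99 in Q20 and 13.75, 13.71 and 13.86 in Q111, above all control arrays (13.27 to 13.53), with changes of 0.53 and 0.39. The Q111 call was lost without control replicate 1 or any 1 of the Q111 arrays (adjusted p = 0.051 to 0.095). Relative to chromosome 11 these were 0.08 and -0.05, neither called. Psmb7, with the trypsin-like site, did not pass in any group, with changes of at most 0.13 in size. Psmb1, Psmb2, Psmb3 and Psmb4 were not called against control either.

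Psmb10, the interferon-inducible form of the trypsin-like subunit, showed the largest rises. Its levels were 9.62, 9.58 and 8.66 on the Q20 arrays, 9.60, 9.65 and 8.51 on the Q111 arrays, 8.31, 8.33 and 7.90 on the Q50 arrays, 8.95, 7.81 and 7.99 on the Q91 arrays, 7.49 to 8.25 on the knock-out arrays and 7.88 to 8.58 on the control arrays. Replicates 1 and 2 of Q20 and Q111 were more than 1 log2 unit above the control mean, and replicate 3 of each was near the highest control array. The change was 1.08 (SE 0.28, adjusted p = 0.0072) in Q20, a fold of 2.12, and 1.05 (SE 0.28, adjusted p = 0.0083) in Q111, a fold of 2.07. On replicate 3 of Q20 and Q111, and on all Q91 arrays, the chromosome 8 median was also low, and relative to it the changes were 1.17 in Q20 and 1.14 in Q111, both called. Col1a1 was at 8.97, 9.0 and 5.97 on the Q20 arrays, 8.62, 8.97 and 7.62 on the Q111 arrays and 8.44, 8.42 and 5.57 on the Q91 arrays, so it was lowest on replicate 3 of each, and its part in the result was not tested. The Psmb10 calls were lost against control replicates 1 to 3 alone (0.82 and 0.79, adjusted p = 0.076 and 0.086) and without replicate 1 or 2 of either line.

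Of the 6 ATPases of the cap base, only the chromosome 14 gene Psmc6 and the chromosome 11 gene Psmc5 were called against control. Psmc6 was higher in the knock-out (0.23, adjusted p = 0.032) and lower in Q91 (-0.32) and Q111 (-0.27). The knock-out arrays, at 14.03 to 14.21, overlapped the control arrays, at 13.74 to 14.15. Relative to chromosome 14 it was lower in the knock-out (-0.21, adjusted p = 0.030), so that its direction turned. Psmc5 was lower in the knock-out (-0.26, adjusted p = 0.045) and higher in Q20 (0.37) and Q111 (0.29), which turned to -0.08 and -0.15 relative to chromosome 11. Its knock-out call held in 1 and that of Psmc6 in 4 of the 12 fits that left out 1 array. In the lines the Psmc5 calls were lost without Q20 replicate 1 (0.072) and in Q111 without any 1 array but control replicate 4 (0.056 to 0.19). Those of Psmc6 were lost without Q91 replicate 2 (0.059) and, in Q111, without control replicate 2 or 3 or Q111 replicate 1 or 2 (0.051 to 0.11). Psmc1, Psmc2, Psmc3 and Psmc4 passed in none of these comparisons, with changes of at most 0.25 in size.

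Among the 11 other cap subunits, Psmd12 and Psmd3 were the clearest. Psmd12, a scaffold subunit of the lid, was at 12.36 to 12.83 with a median of 12.70 on the knock-out arrays and at 13.10 to 13.37 with a median of 13.23 on the control arrays (-0.55, SE 0.11, adjusted p = 0.0019). In Q20 and Q111 it was higher, with arrays at 13.83, 13.66 and 13.92 and at 13.79, 13.63 and 13.81 (0.58 and 0.52). The knock-out arrays lay below and the Q20 and Q111 arrays above all control arrays. Relative to chromosome 11 the fall in the knock-out was -0.34 (adjusted p = 0.0041) and the rises were 0.13 and 0.08, not called.

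Psmd3, another lid scaffold, was at 10.39 to 10.91 on the knock-out arrays and 11.09 to 11.45 on the control arrays (-0.56, SE 0.13, adjusted p = 0.0064). It was the only member called in Q50, at 10.85, 10.56 and 10.85 (-0.51, adjusted p = 0.0496), and this call was lost in each of the 9 fits that left out 1 array. Psmd11, known from human embryonic stem cells for raising proteasome assembly, was higher in Q20 (0.35) and Q111 (0.37) and stood at -0.10 and -0.07 relative to chromosome 11. These calls were lost without replicate 1 or 3 of Q20 (adjusted p = 0.072 and 0.054) and without replicate 1 of Q111 (0.059). Psmd6, a lid subunit on chromosome 14, was higher in the knock-out (0.29, adjusted p = 0.038) and lower in Q111 (-0.34, adjusted p = 0.030), calls that held in 4 of 12 and 3 of 9 fits without 1 array, and stood at -0.15 in the knock-out relative to its chromosome. Psmd1, Psmd2, Psmd4, Psmd7, Psmd8, Psmd13 and the deubiquitinase Psmd14 were not called in any comparison with control, with changes of at most 0.40 in size. The largest of these were Psmd1 in Q20 (-0.40), where chromosome 1 had a median change of -0.43, and Psmd7 in Q91 (-0.40), where chromosome 8 had -0.43.

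All 3 activators were called higher in Q20 and Q111, where 16.2% of all probe sets were called higher in each line. Psme3 and Psme4 lie on chromosome 11, where 50.3% of all measured genes were called higher in Q20 and 48.6% in Q111. Psme1 is a subunit of the interferon-inducible activator. It was at 11.19 to 11.67 with a median of 11.45 in the knock-out and at 10.41 to 11.05 with a median of 10.86 in control cells, without overlap (0.62, SE 0.15, adjusted p = 0.0077). Its arrays were at 11.49, 11.42 and 11.16 in Q20 (0.53, adjusted p = 0.036), 11.41, 11.52 and 11.28 in Q111 (0.58, adjusted p = 0.023), 11.62, 10.76 and 10.46 in Q91 and 10.45, 10.66 and 10.37 in Q50. Relative to chromosome 14 the rise was 0.18 in the knock-out (adjusted p = 0.43), 0.71 in Q20 (adjusted p = 0.0060) and 0.78 in Q111 (adjusted p = 0.0025). Psme1 and Psmb10 were thus the only members called higher in Q20 and Q111 relative to their chromosomes. The deposited values gave no Psme1 call in Q20 without control replicate 1 or 4 or Q20 replicate 1 or 2 (adjusted p = 0.052 to 0.15), and none in Q111 without Q111 replicate 1 or 2 (0.074 and 0.096). On the Q91 arrays both were highest on replicate 1.

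Psme3, the nuclear activator, was at 11.91, 12.11 and 12.11 in Q20 (0.58) and 11.77, 12.46 and 11.81 in Q111 (0.56), against 11.22 to 11.66 in control cells. Its call was lost in Q20 without Q20 replicate 2 or 3 (adjusted p = 0.088 and 0.077), and in Q111 without control replicate 1 or 3 or Q111 replicate 2 (0.057 to 0.25). Psme4, the large nuclear activator, was at 12.62, 12.37 and 12.57 in Q20 (0.58), 12.63, 12.62 and 12.73 in Q111 (0.72) and 12.45, 12.38 and 12.17 in Q91 (0.39, adjusted p = 0.028), against 11.65 to 12.22 in control cells. Replicate 3 of Q91 was within the control range, and that call was lost without replicate 1 or 2 of Q91 or control replicate 1, 2 or 3 (adjusted p = 0.055 to 0.11). Relative to chromosome 11 the changes of Psme3 were 0.14 in Q20 and 0.12 in Q111, and those of Psme4 0.13 and 0.28, none called.

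**Figure D4:**
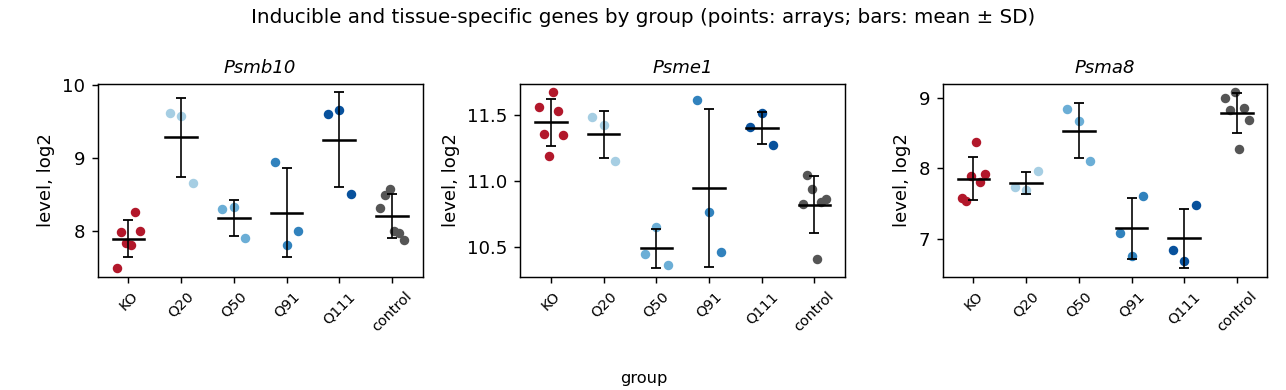
Log2 level of the inducible genes Psmb10 and Psme1 and of the germ-cell form Psma8 in the knock-out (KO), the 4 knock-in lines and control cells; points are arrays, horizontal bars the mean and error bars the standard deviation (n = 6, 3, 3, 3, 3 and 6). Psmb10 is higher in Q20 and Q111, Psme1 in the knock-out, Q20 and Q111, and Psma8 is lower in every group but Q50.

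A pair of genes carry the prefix without being subunits. Psme3ip1, a binding partner of Psme3, was at 9.95, 9.73 and 9.98 in Q91, below all control arrays at 10.35 to 10.63 (-0.62, SE 0.13, adjusted p = 0.0017), where the chromosome 8 median was -0.43. Psmc3ip, a meiotic recombination factor, was not called against control and reached 0.45 in Q20, close to the chromosome 11 median.

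The knock-out was also set against the mean of the 4 knock-in lines, a contrast in which the controls cancel. It called 21 members, 6 higher and 15 lower, where 46.7% of all probe sets were called (20.1% higher and 26.6% lower), so that the share of members, 46.7%, equalled the background. All 9 chromosome 11 members were lower and all 4 chromosome 14 members higher in the knock-out. The largest falls were Psmd12 (-0.86), Psmb10 (-0.85), Psmg3 (-0.60), Psme3 (-0.60) and Psmb6 (-0.51), and the largest rises Psmb5 (0.58), Psmd6 (0.53) and Psmc6 (0.48). Over all genes, chromosome 11 had a median of -0.46 and chromosome 14 of 0.60 in this contrast. Of the genes measured there, 66.0% were called lower on chromosome 11 and 76.7% higher on chromosome 14. Relative to the chromosomes 11 members were called, 4 higher and 7 lower (24.4% of members, against 43.5% of all probe sets), with Psmg2, Psmg3, Psmd12 and Psmb10 among the lower ones. All 4 chromosome 14 members were then below 0 (-0.21 to -0.03), and Psmb3, Psmc5, Psmc3ip, Psmd11 and Psme4 of chromosome 11 above it (0.01 to 0.13). Among the lines the F-test called 9 members, where 9.74% of all probe sets were called: Psma8, Psmb6, Psmb10, Psmd3, Psmd11, Psmd12, Psme1, Psme3 and Psme4. Relative to the chromosomes Psma8, Psmb10 and Psme1 were called (6.67% of members, against 6.95%). The call of Psmb10 among the lines was lost with no filter and without replicate 1 or 2 of Q20 or Q111, replicate 3 of Q50 or replicate 2 of Q91 (adjusted p = 0.051 to 0.065). Psma8, Psmd3 and Psme3 were called among the lines in each of the 12 fits that left out 1 knock-in array, and the other 6 were not called in at least 1.

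Transcription factors of proteasome genes and the proteins that process or hold them back were followed as a list, of which 11 of 14 genes were tested. In the knock-out 4 were higher and 2 lower, where 7.42% of all probe sets were called higher and 7.17% lower. Nfe2l1, the factor that induces proteasome genes, was lower (-0.39) and lies on chromosome 11, and Ngly1, the enzyme that activates it, was higher (0.89) and lies on chromosome 14. Nfe2l2, its stress-responsive relative on chromosome 2, was higher (0.44). Zfand5 on chromosome 19 (0.45) and Keap1 on chromosome 9 (0.30) were also called higher. In Q20 5 were higher and 0 lower and in Q111 6 and 0, where 16.2% of all probe sets were called higher in each line. Nfe2l1 stood at 0.59 and 0.56 and its partner Mafg, also on chromosome 11, at 0.54 and 0.43. Nploc4, on chromosome 11 too, stood at 0.53 and 0.66, and was called lower in the knock-out (-0.40). The others called higher lie elsewhere. Sel1l, on chromosome 12, stood at 0.50 in Q20 and 0.59 in Q111. Vcp, the segregase that extracts ubiquitinated proteins, lies on chromosome 4 and stood at 0.23 and 0.25. Zfand5, on chromosome 19, was called in Q111 (0.30) but not in Q20 (0.24). In Q91 1 was higher, again Vcp (0.25), where 12.7% of all probe sets were. In Q50 limma called 0, with 2 at an unadjusted p under 0.05, as were 24.8% of all probe sets. Nfe2l1 stood at 0.03 there, a sign that turned to -0.04 with median centring or quantile normalization, and Nfe2l2 at -0.09.

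Of 18 proteins that associate with the particle, 15 were tested. In the knock-out 0 were higher and 2 lower, Pomp and the shuttle factor Ubqln4 (-0.49). Of all probe sets, 7.42% were called higher and 7.17% lower there. The import factor Ipo9, which carries proteasomes into the nucleus in human cells, was the 1 called in Q20 (-0.75), and the ligase Ube3c the 1 called in Q50 (0.43). The shuttle factor Ubqln2 was higher in Q91 (0.47) and Q111 (0.44). It was the 1 called in Q91, while in Q111 Pomp was also called, lower. Of all probe sets, 25.2% were called in either direction in Q20, 8.0% in Q50, 22.2% in Q91 and 25.7% in Q111. Of 19 ubiquitin genes, 12 were tested. In the knock-out limma called 0, and 0 were at an unadjusted p under 0.05, where 28.7% of all probe sets were. In the lines 2 were called higher in Q20, 1 in Q50, 2 in Q91 and 2 in Q111, and none lower. Of all probe sets, 16.2%, 5.70%, 12.7% and 16.2% were called higher in these lines, in that order. The ligase Ube3a was called in Q20 (0.42), Q50 (0.49) and Q91 (0.29). Uba6 was called in Q20 (0.39), Q91 (0.28) and Q111 (0.38), and Ube2d2a in Q111 (0.35). The inhibitor Psmf1 was not called in any group, with a change of 0.21 in the knock-out and -0.43 in Q50.

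Against control, 26 of the 45 members were called in no group, and the matching share over all probe sets was not counted. A further 28 probe sets also measured members, and none was called in the opposite direction. In 13 instances the further probe set did not pass where the chosen one did. Among them were Psmc6 in Q91 and Q111, Psme3 in Q20 and Q111 and Psma5 in the knock-out and Q111. The reverse held in the knock-out for a further probe set of Psmb3 (-0.38), Psmd4 (-0.25) and Psmd11 (-0.55). It also held for Psma3 in Q20 (0.76) and Q50 (0.98), at a mean level of 5.61, and for Psma6 in Q111 (-0.26). Psmb3, Psmd4, Psma3 and Psma6 are among the 26, so that count depends on the chosen probe set. Among members called against control, Psma8, Psmb5, Psmb6, Psmb10, Psmc5, Psmd3, Psmd12, Psme1, Psme3ip1, Psmg1, Psmg3 and Psmg4 rest on 1 probe set each.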

How the data were processed

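Total RNA of 24 samples was hybridised to 1-colour arrays. The authors made the deposited log2 values of 45101 probe sets with GCRMA, per the submitters' processing notes, which corrects background by probe sequence and normalizes between arrays (version not given in the sources used here). That they are log2 follows from their range, -0.18 to 17.19. Groups follow the titles and genotypes of the labels.

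After removal of 64 control probe sets, the 17980 that reached log2 5 on 3 or more arrays were tested. The platform annotation named 1 gene for 34945 probe sets, several for 932 and none for 9160. The probe set with the highest mean stood for a gene. Group means were estimated from all arrays together in limma 3.58.1 under R 4.3.3, which left 18 residual degrees of freedom. Moderated two-sided tests were adjusted by Benjamini-Hochberg over all probe sets, threshold 0.05. The 12 knock-in arrays gave the slope on the repeat number of the longer allele, in which arrays are nested in lines. The fit was tested on simulated data. Chromosomes came from RefSeq, GRCm38.p6, for all 45 members.

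The members and gene lists were chosen with earlier results of these data known. In each comparison the 5 largest rises and falls among called members and up to 4 genes of each list were named by rule. The extremes of each class and the inducible subunits were named by rule too. Other called members and list genes were named after their values were seen. Alternatives were scaling, filter, choice of probe set, array weights, a mean-variance trend, a replicate block, the samples in the fit, each array left out, and centring within chromosomes, the last chosen after seeing the data. Replicate numbers did not pair arrays of the groups and the control: same-numbered deviations correlated at -0.41 to -0.26 between knock-out and control and at -0.11 to 0.13 between lines and control. Figures were drawn with matplotlib 3.10.9.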

Additional observations from a re-analysis of the deposited data

Results flagged for a closer look

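A total of 90 groups of 6 arrays were examined for 1 array far from the rest, and 6 stood out, where chance gives about 1 in 20. Among the control arrays, Psmb7 was low on replicate 1 (13.84, others 14.04 to 14.06), Psme1 was low on replicate 4 (10.41, others 10.83 to 11.05) and Psmg4 was high on replicate 2 (8.88, others 7.82 to 8.18). Among the knock-out arrays, Psma2 was high on replicate 1 (13.35, others 13.18 to 13.22), Psma6 was high on replicate 5 (13.69, others 13.41 to 13.51) and Psmd12 was low on replicate 4 (12.36, others 12.67 to 12.83).

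Of the 21 members for which the knock-out differed from the mean of the 4 knock-in lines, in the limma test of that difference, the 5 largest differences in each direction follow. The knock-out was higher for Psmb5 (0.58), Psmd6 (0.53), Psmc6 (0.48), Psme3ip1 (0.46) and Psme1 (0.40), and lower for Psmd12 (-0.86), Psmb10 (-0.85), Psmg3 (-0.60), Psme3 (-0.60) and Psmb6 (-0.51).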

How the results depend on the processing

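Counts of called members changed by over 1.5 times under these settings. Without a filter Q50 had 0, and likewise 0 with the replicate block, in the fit of only the 2 groups compared, and against control replicates 1 to 3 or 4 to 6 alone. With array weights Q91 had 12 and Q111 20, and in the fit of only the 2 groups compared Q91 had 3. Against control replicates 1 to 3 alone Q111 had 8. Replicates 4 to 6 alone gave 6 in the knock-out, and control replicates 4 to 6 alone gave 2 in Q20, 3 in Q91 and 4 in Q111. Centring within chromosomes gave 5 in Q20, 5 in Q111, 11 for the knock-out against the lines and 3 for the F-test. With the mean of all probe sets of a gene, Q50 had 1 called, Psma3, which was higher.

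Leaving out 1 array gave 7 to 13 calls in the knock-out (7 without knock-out replicate 6), 6 to 11 in Q20 (6 without Q20 replicate 1 or 2), 0 to 0 in Q50 (the call of Psmd3 was lost each time), 3 to 9 in Q91 (3 without Q91 replicate 2 and 9 without Q91 replicate 1), 5 to 12 in Q111 (5 without Q111 replicate 1 or 2, and 8 without control replicate 3), 18 to 23 for the knock-out against the lines, 0 to 0 for the slope and 5 to 12 for the F-test (5 without Q50 replicate 1).

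Replicate numbers did not pair groups with the control. As a hint from the data, every array correlated best with its own number between Q20 and Q111, between Q50 and Q91 and between the knock-out and Q91, but not between the other pairs of groups. With the replicate block, 9 members were called in the knock-out, 7 in Q20, 5 in Q91, 10 in Q111, 17 for the knock-out against the lines, 0 for the slope and 8 for the F-test.

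Directions turned in these cases. Nfe2l1 in Q50 was -0.045 with median centring, -0.035 with quantile normalization, -0.026 with array weights and -0.017 without control replicate 4 (-0.017 to 0.074 over the arrays left out), and in Q91 -0.075 without Q91 replicate 1 (-0.075 to 0.27). Nfe2l2 in Q50 was 0.027 against control replicates 4 to 6 alone and 0.050 without Q50 replicate 1 (-0.25 to 0.050 over the arrays left out). Htt in the knock-out against the lines was 0.010 with median centring, 0.032 with quantile normalization, 0.25 with the mean of all probe sets and 0.044 without knock-out replicate 2. Centred within chromosomes, the knock-out had Psmb5 at -0.11, Psmd6 at -0.15 and Psmc6 at -0.21, Q20 had Psmc5 at -0.081 and Psmd11 at -0.10, and Q111 had Psmb6 at -0.051, Psmd11 at -0.070 and Psmc5 at -0.15. In that setting the knock-out against the lines had Psmb5 at -0.028, Psmd6 at -0.076, Psmc6 at -0.13, Psme1 at -0.21, Psmc5 at 0.013, Psmc3ip at 0.016, Psme4 at 0.033, Psmb3 at 0.10 and Psmd11 at 0.13. Over all genes and settings, 28 values turned direction and 410 lost their call while 2375 kept both. Apart from the subtraction of the chromosome median, the cause was not tested. The Actb 3' minus 5' difference was 1.54 on Q50 replicate 3 and 0.75 to 1.03 elsewhere.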
